A study of Homo sapiens with 8 samples.

Results

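The 10 genes described here encode factors that make, process or remove histone mRNA: SLBP, LSM10, LSM11, ZNF473, NPAT, CASP8AP2, CPSF3, SYMPK, CSTF2 and ERI1. They were listed by their known roles, with earlier results of these data known, and were found through their Entrez gene IDs among 27936 genes counted. All 10 passed the filter on low counts, which kept 14455 genes, and the lowest count of any member in any library was 62, for LSM10.

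The counts came from 8 poly(A)-selected RNA-seq libraries of HEK293, an established line derived from human embryonic kidney. Of these, 4 were labelled as a knock-out (KO) of TIP60, the lysine acetyltransferase encoded by KAT5, and 4 as control. Both arms were split evenly between sgRNA1 and sgRNA2, with 2 libraries for each guide number, named after the single guide RNA that directs Cas9 to a gene. The genotype label was HEKg1/C9 for the KO libraries and HEKg1 for the controls. The labels do not explain the added C9, the sequence targeted by the control guides, whether a line is 1 clone, or whether replicates were separate cultures. P-values therefore measure the spread between these libraries, which may be technical. All 8 samples, controls included, had received doxycycline at 1 µg/ml for 3 days.

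Library totals ran from 12478705 to 18841774 counts in 7 libraries and came to 3723992 in the control sgRNA1 replicate 2 library, 29.8% of the next smallest. KAT5 checked the labels, with 18.8 ± 0.964 CPM (counts per 1e6 reads, scaled by TMM; SD, n = 4) in KO and 46.8 ± 2.12 (SD, n = 4) in control libraries. Its log2 fold change was -1.32 ± 0.0641 (SE; adjusted p = 6.71e-13, edgeR quasi-likelihood test, Benjamini-Hochberg over all tested genes). On GENCODE v29, exons of RNASEH2C overlap 38.6% of KAT5 exon bases on the other strand, and RNASEH2C itself had a log2 fold change of -0.33 ± 0.0508. NEFM, NEFL and VIM, which HEK293 cells express, were abundant, NEFM at 7539 to 13183 CPM, whereas PAX2 lay between 0.323 and 1.31 CPM and LHX1 had at most 5 counts in any library. The 12 markers of leukocytes, endothelium and hepatocytes were all under 1 CPM, the highest being VWF at 0.875 CPM. The 4 endothelial markers summed to 0.668 to 1.46 CPM in KO and 0 to 0.325 CPM in control libraries, the 4 hepatocyte markers to 0.233 to 0.594 and 0 to 0.069 CPM, and the 4 leukocyte markers to 0.198 to 0.519 and 0.0808 to 0.539 CPM. Of the fibroblast markers, COL1A1 had 12.4 to 20.8 CPM and COL3A1 4.85 to 8.6 CPM, and DCN and LUM had at most 0.0584 and 0.175 CPM.

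Replication-dependent histone mRNAs are the only major class of animal mRNA that ends without a poly(A) tail. Their 3′ end carries a short stem-loop that SLBP binds, and the U7 snRNP, whose RNA pairs with a purine-rich element downstream, brings the endonuclease CPSF3 to cut between them. The genes are transcribed in S phase at histone locus bodies, where NPAT and CASP8AP2 reside, and the mRNAs are degraded from the stem-loop end when replication stops. A poly(A) selection mostly leaves such mRNAs out unless they end at a downstream polyadenylation site.

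To show the element these factors act on, the stem-loop of 1 gene of each core histone class is printed from GENCODE v29 transcripts on GRCh38, 5′ to 3′. For each class it is the most abundant tested gene in which the loop was found, and capitals mark the 16 bases of the stem-loop, with 6-base arms, a 4-base loop and 5 bases in lower case on each side.
H2AC25, chr1:228457364-228457389, minus strand: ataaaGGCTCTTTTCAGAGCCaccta
H2BC5, chr6:26158582-26158607, plus strand: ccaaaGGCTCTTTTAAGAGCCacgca
H3C10, chr6:27810511-27810536, plus strand: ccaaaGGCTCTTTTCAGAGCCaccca
H4C8, chr6:26285126-26285151, minus strand: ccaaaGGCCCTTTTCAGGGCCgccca
The histone stem-loop was searched on the transcript strand, with pairing arms that open with GG and close with CC, and it was found in 28 of 64 histone genes searched, against 120 of 19702 coding genes (0.609%). Among the histone genes that passed the filter, 17 of 29 searched held it, and 14 of these had a transcript model that ran at least 100 bases past it. A match describes these annotated letters only. The search took only exactly paired arms in annotated coding transcripts, so a gene without a match is not shown to lack a stem-loop. H2BC12, H1-2 and H3C4 were among the tested genes without a match.

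Of the 10 factors, 5 were lower in KO than in control libraries (LSM11, LSM10, NPAT, SLBP and SYMPK), none was higher, and 5 did not pass the test. Across all tested genes 31.2% were called lower and 31.8% higher, and among the 6849 genes within the members' range of mean level, 21.3 to 157 CPM, 39.8% were called lower. The share of members called lower was thus 5 of 10 against a large background. The members' median log2 fold change was -0.14, against 0.01 over all tested genes and -0.05 over the genes in that range. The fitted changes were small, from -0.57 for LSM11 to 0.08 for ERI1. For 3 members (LSM11, NPAT and SLBP) every KO library lay below every control library, which held for 25.6% of tested genes. A bulk level cannot tell fewer cells expressing a gene from less RNA per cell.

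**Figure D1:**
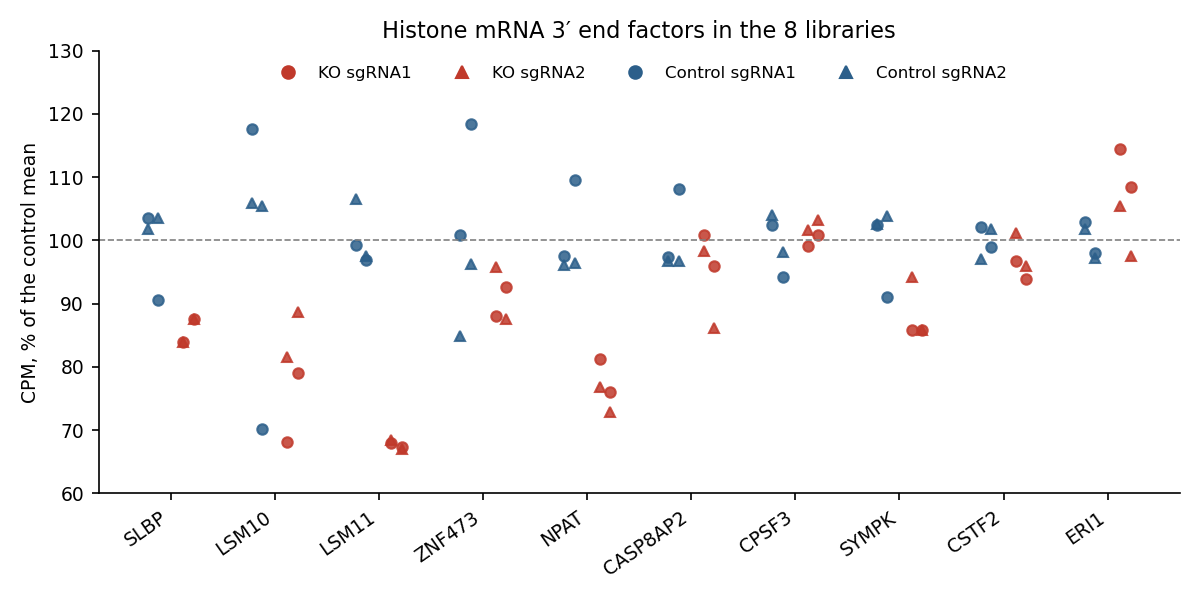
CPM of the 10 factors in each of the 8 libraries, as percent of the gene's control mean (vertical axis), with 1 point a library, KO and control in different colours, the guide number as the marker shape and the control mean as a dashed line. LSM11, with 42.7 to 43.6 CPM in KO and 61.7 to 67.9 in control libraries, shows the clearest separation, while CPSF3 and CASP8AP2 show mixed points.

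SLBP binds the stem-loop, stays with the mRNA through export and translation, and is itself made in S phase and destroyed at its end. Its level was 142, 148, 142 and 148 CPM in the KO libraries (sgRNA1 replicates 1 and 2, then sgRNA2 replicates 1 and 2; the same order is used below) and 175, 153, 172 and 175 CPM in the controls. The groups did not overlap, although the shallow control sgRNA1 replicate 2 library, at 153 CPM, came close to the KO values. The log2 fold change was -0.23 ± 0.0457 (SE; adjusted p = 0.000205, edgeR), so the KO level was 85.4% of control (95% interval 79.9 to 91.2%). SLBP lies on the minus strand of chromosome 4 at 1692731 to 1712319 (GRCh38), and no annotated exon of another gene overlaps it. Over all 8 libraries, the tested genes nearest to SLBP by root mean square distance of centred log2 CPM were HARS1 at 0.0204, ATP5F1A at 0.0222 and MCFD2 at 0.0226, with log2 fold changes of -0.22, -0.20 and -0.20. These genes were picked for closeness in the same libraries, so fold changes near that of SLBP follow from the choice.

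LSM11 and LSM10 are the Sm-like proteins that set the U7 snRNP apart from spliceosomal snRNPs, taking the places of SNRPD2 and SNRPD1 in its ring, and LSM11 also contacts the cleavage factors. LSM11 (chromosome 5, 157743712 to 157760709, plus strand) was measured at 43.3, 42.9, 43.6 and 42.7 CPM in KO and at 63.2, 61.7, 67.9 and 62.1 CPM in control libraries. It was the member with the largest change, in libraries that agreed closely within each arm. Its log2 fold change was -0.57 ± 0.0506 (SE; adjusted p = 5.43e-09, edgeR), a KO level of 67.5% of control (95% interval 62.7 to 72.6%), and 7.9% of tested genes had a lower value. LSM10 (chromosome 1, 36393436 to 36397908, minus strand) was the least counted member, at 16.2, 18.8, 19.4 and 21.1 CPM in KO and 28, 16.7, 25.2 and 25.1 CPM in control libraries. The 16.7 CPM of the shallow control library lay among the KO values, so the groups overlapped. The log2 fold change of LSM10 was -0.40 ± 0.097 (SE; adjusted p = 0.00131, edgeR), with a KO level of 75.9% of control (95% interval 66 to 87.4%). With counts thinned to a common depth by a single random draw, LSM10 was not called (-0.14, adjusted p = 0.375, edgeR).

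ZNF473 (ZFP100) is a zinc finger protein that links SLBP to LSM11. It was measured at 48.9, 51.4, 53.2 and 48.6 CPM in KO libraries and at 56, 65.7, 47.1 and 53.4 CPM in controls. Control libraries spread over a wider range than KO libraries and enclosed it. The log2 fold change was -0.10 ± 0.0661 (SE; adjusted p = 0.215, edgeR; 95% interval -0.23 to 0.04), so a fall to 85.1% of control lies at the edge of what the data allow. It was called lower without KO sgRNA2 replicate 1 (-0.16, adjusted p = 0.0481, edgeR) or without control sgRNA2 replicate 1 (-0.17, adjusted p = 0.0385, edgeR). ZNF473 lies on chromosome 19 at 50026005 to 50048776.

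Among the histone locus body proteins, NPAT is the cyclin E/CDK2 substrate that activates histone gene transcription, and CASP8AP2 (FLASH) binds LSM11 and helps to recruit the cleavage complex. NPAT was measured at 41.8, 39.1, 39.5 and 37.5 CPM in KO and at 50.1, 56.3, 49.4 and 49.6 CPM in control libraries, with no overlap. The log2 fold change was -0.36 ± 0.0545 (SE; adjusted p = 7.76e-06, edgeR), a KO level of 77.9% of control (95% interval 72 to 84.2%). CASP8AP2 was measured at 124, 118, 121 and 106 CPM in KO and at 119.8, 133, 119 and 119 CPM in control libraries. These values were mixed between the arms. Its log2 fold change was -0.05 ± 0.0493 (SE; adjusted p = 0.374, edgeR), with an interval of -0.15 to 0.05. The 2 partners in the same nuclear body thus differed in the call, and the difference between their changes was not tested.

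NPAT (chromosome 11, 108157215 to 108222638, minus strand) starts 158 bases from ATM, the DNA damage kinase gene on the opposite strand, and 1.9% of NPAT exon bases overlap ATM. ATM had a log2 fold change of -0.26 ± 0.0545, so both genes of the divergent pair were lower in KO over both guides together. Within a guide, ATM had -0.39 ± 0.0704 with sgRNA1 and was not called with sgRNA2 (-0.15 ± 0.0669, adjusted p = 0.0781, edgeR). Its guide difference of 0.25 ± 0.097 was not called. The start of ITGB1BP1 lies 21 bases from that of CPSF3 without an exon overlap. ITGB1BP1 was lower at -0.39 ± 0.0557, whereas the value for CPSF3 was 0.01. VRK3, whose start lies 232 bases from that of ZNF473 and which overlaps 3.23% of its exon bases on the other strand, was higher at 0.33 ± 0.0512. FOXA3, with a start 699 bases from that of SYMPK, had 0.889 CPM in KO and 0.609 CPM in control libraries and was not called (0.26 ± 0.38). Annotated antisense genes also overlap 3.55% of ZNF473 and 0.386% of SYMPK exon bases, and a lincRNA starts 266 bases from SLBP without an exon overlap. None of these was among the tested genes. The strand setting of the counting is not given in the sources used here, so reads in all these overlaps may have been shared.

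CPSF3 (CPSF73) is the endonuclease that cuts both histone and polyadenylated pre-mRNA, SYMPK is the scaffold that holds the cleavage module together, and CSTF2 (CstF64) occurs in both machineries. SYMPK was measured at 134, 134, 147 and 134 CPM in KO and at 159.7, 142, 160.0 and 162 CPM in control libraries. The groups overlapped, because the KO sgRNA2 replicate 1 library was above the shallow control library. Its log2 fold change was -0.19 ± 0.0459 (SE; adjusted p = 0.001, edgeR), a KO level of 87.4% of control (95% interval 81.8 to 93.4%). After thinning to a common depth SYMPK was not called (-0.11, adjusted p = 0.0796).

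CPSF3 was measured at 121, 123, 124 and 126 CPM in KO and at 125, 115, 127 and 119.7 CPM in control libraries. The log2 fold change was 0.01 ± 0.0438 (SE; adjusted p = 0.797, edgeR), and its interval, -0.08 to 0.11, corresponds to 94.8% to 108% of control. CSTF2 was measured at 71.3, 69.2, 74.6 and 70.7 CPM in KO and at 75.3, 73, 71.5 and 75 CPM in control libraries, which gave -0.04 ± 0.0469 on the log2 scale (adjusted p = 0.438, edgeR). Both genes had overlapping groups. CSTF2 has a close paralog, CSTF2T, and reads that fit both could have been counted for either, so both values are uncertain. CSTF2T had a log2 fold change of -0.12 (adjusted p = 0.029, edgeR). CPSF3 lies on chromosome 2 at 9423654 to 9473101, SYMPK on chromosome 19 at 45815410 to 45863147 and CSTF2 on chromosome X at 100820391 to 100841520.

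ERI1 is the 3′ exonuclease that trims the cut histone mRNA end and starts its decay, together with SLBP. It was measured at 57.2, 54.2, 52.7 and 48.8 CPM in KO and at 51.5, 49, 50.9 and 48.6 CPM in control libraries, with overlap. ERI1 (chromosome 8, 9002897 to 9100104) differed by 0.08 ± 0.053 on the log2 scale (SE; adjusted p = 0.198, edgeR; interval -0.03 to 0.19). Under the settings tried for KO against control it was the only member called higher, at 0.20 (adjusted p = 0.0372, edgeR) after thinning by a single random draw.

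**Figure D2:**
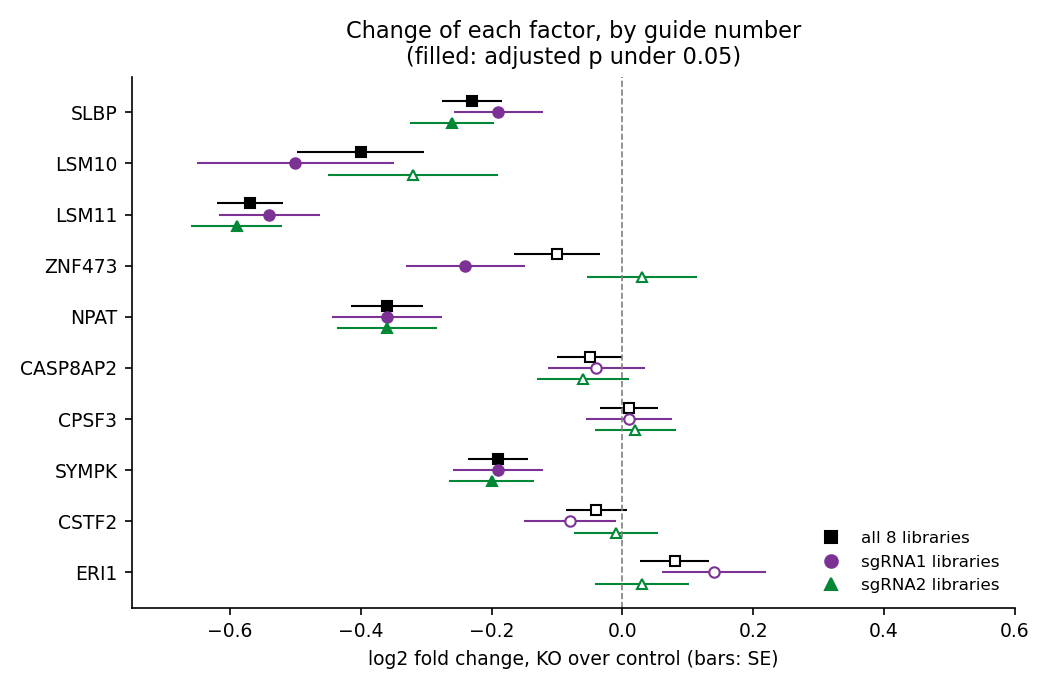
Fitted log2 fold change of KO against control for each factor, over all 8 libraries and within each guide number, with bars of 1 SE and filled points for an adjusted p under 0.05. LSM11 lies lowest at -0.57, and CPSF3 at 0.01 and CSTF2 at -0.04 lie close to 0.

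Within a guide number, 6 members were lower with sgRNA1 and 4 with sgRNA2, and none was higher with either. The background was 23.3% of genes lower and 24.3% higher for sgRNA1, and 25.4% lower and 25.7% higher for sgRNA2. LSM11, NPAT, SLBP and SYMPK were called lower with both guides: LSM11 had -0.54 ± 0.0772 and -0.59 ± 0.0701, NPAT -0.36 ± 0.0835 and -0.36 ± 0.0762. SLBP had -0.19 ± 0.0679 (adjusted p = 0.0248, edgeR) with sgRNA1 and -0.26 ± 0.0643 (adjusted p = 0.00274, edgeR) with sgRNA2. Within a guide, leaving out 1 library ended no call for LSM11 or NPAT but did for the others. After thinning, LSM11 alone was called with sgRNA1, where 2347 of all genes were called lower, and NPAT had -0.28 (adjusted p = 0.104, edgeR). The sgRNA1 value of SLBP was not called without KO sgRNA1 replicate 1 (-0.17), KO sgRNA1 replicate 2 (-0.23) or control sgRNA1 replicate 1 (-0.07). SYMPK (-0.19 ± 0.0692 and -0.20 ± 0.065) was not called with sgRNA1 without KO sgRNA1 replicate 1 or 2, control sgRNA1 replicate 1 (-0.08) or control sgRNA2 replicate 1, nor with sgRNA2 without KO sgRNA2 replicate 2 (-0.14) or control sgRNA2 replicate 1 or 2. In these 4 genes each guide's 2 KO libraries lay below its 2 controls, an order whose share over all tested genes was not computed. The same order held for ZNF473 and CSTF2 with sgRNA1 and for LSM10 with sgRNA2. Of these, CSTF2 and LSM10 were not called with that guide, so the order adds little to the calls. LSM10 was called with sgRNA1 (-0.50 ± 0.15, adjusted p = 0.0108, edgeR) and missed the threshold with sgRNA2 (-0.32 ± 0.13, adjusted p = 0.0502, edgeR). With sgRNA1, LSM10 was not called without KO sgRNA1 replicate 1 (-0.39) and had 0.06 without control sgRNA1 replicate 1, and with sgRNA2 it was called without KO sgRNA2 replicate 2 (-0.38) or either control sgRNA1 library. Which members were called with sgRNA1 depended on the library left out. The direct test of the guide difference called no gene at an adjusted p under 0.05 (0% of tested genes; 638 of them at an unadjusted p under 0.05). DESeq2 and limma-voom also called 0, while edgeR with no filter on low counts called 4 lower and 7 higher. Leaving out 1 library gave 2 lower and 1 higher without KO sgRNA2 replicate 1, 3 and 22 without control sgRNA1 replicate 1, and 15 and 8 without control sgRNA1 replicate 2.

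ZNF473 had a log2 fold change of -0.24 ± 0.0909 (adjusted p = 0.0359, edgeR) with sgRNA1 and 0.03 ± 0.0836 (adjusted p = 0.814, edgeR) with sgRNA2. The sgRNA1 value was not called without KO sgRNA1 replicate 1 (-0.21), KO sgRNA1 replicate 2 (-0.29) or control sgRNA1 replicate 2 (-0.17). The guide difference of 0.27 ± 0.12 had an unadjusted p of 0.0436 and an adjusted p of 1 (edgeR). The control lines differed by -0.24 ± 0.092 for ZNF473 (sgRNA2 against sgRNA1, unadjusted p = 0.0175, adjusted p = 0.54, edgeR), a size as large as its KO effect with sgRNA1. No member was called between the control lines, where 0.0277% of genes were.

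Per kilobase of counted length, which allows genes to be compared, SLBP was the most abundant member with 79.7 ± 5.02 CPM per kb in control libraries (SD, n = 4). CPSF3 followed at 34.5 ± 1.57, SYMPK at 32.8 ± 1.97, LSM10 at 25.6 ± 5.29 and CSTF2 at 23.7 ± 0.569. Neighbours from CPSF3 to CSTF2 had overlapping control ranges, so the order of adjacent genes was not resolved. The range of CPSF3, 32.6 to 36.1, lay above those of LSM10 and CSTF2. That of SYMPK, 29.8 to 34, lay above that of CSTF2, 23 to 24.2. CASP8AP2 came next at 18.1 ± 1.06 and ZNF473 at 10.6 ± 1.47 CPM per kb. The control range of CASP8AP2, 17.5 to 19.7, overlapped that of LSM10, 18 to 30.2. LSM11 at 9.68 ± 0.433, ERI1 at 9.02 ± 0.259 and NPAT at 8.36 ± 0.536 CPM per kb had the lowest control means. The control range of ZNF473, 8.95 to 12.5, overlapped those of LSM11, ERI1 and NPAT, and ERI1 and NPAT overlapped as well. In KO libraries LSM11 stood at 6.55 ± 0.0645 and NPAT at 6.43 ± 0.288 CPM per kb, below ERI1 at 9.61 ± 0.63.

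**Figure D3:**
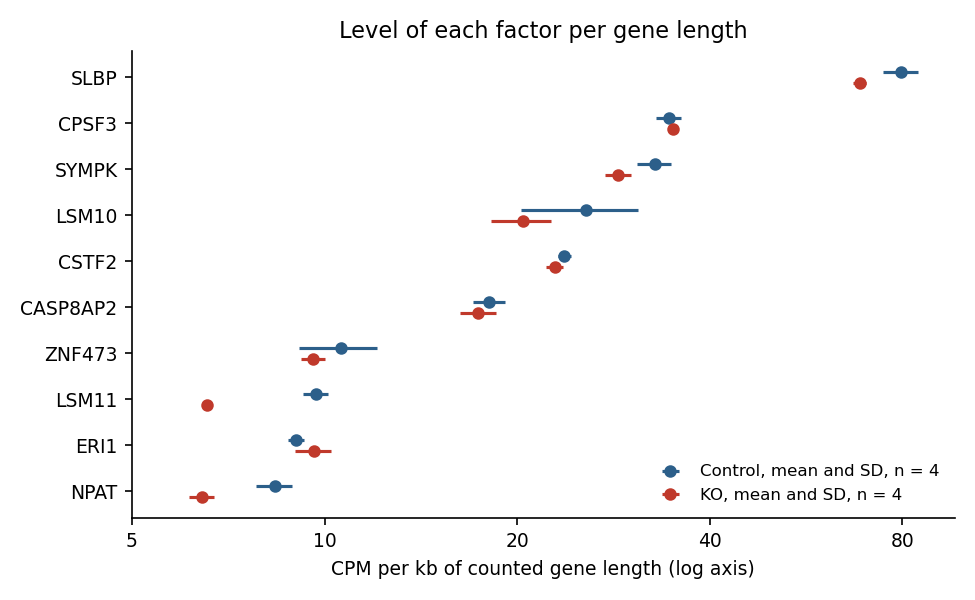
Level of each factor in CPM per kilobase of counted length, on a log axis, as mean and SD of 4 KO and 4 control libraries. SLBP lies highest at 79.7 in control and 68.6 in KO libraries, and NPAT, LSM11 and ERI1 have the lowest control means.

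The promoters of LSM11, NPAT and CASP8AP2 are shown because LSM11 had the largest change among the members and NPAT and CASP8AP2, which share a nuclear body, differed in the call. Each is the 250 bases before the start from RefSeq (GRCh38.p14), 5′ to 3′ on the gene's strand, and capitals mark an E2F site (TTTGGCGC), a CCAAT box and a GC box (GGGCGG), each on either strand.
LSM11, chr5:157743462-157743711, plus strand: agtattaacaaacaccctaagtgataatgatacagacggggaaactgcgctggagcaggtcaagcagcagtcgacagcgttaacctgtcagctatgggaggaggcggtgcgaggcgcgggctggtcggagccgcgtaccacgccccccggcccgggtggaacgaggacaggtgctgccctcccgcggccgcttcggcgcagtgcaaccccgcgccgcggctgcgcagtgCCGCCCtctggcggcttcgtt
NPAT, chr11:108222639-108222888, minus strand: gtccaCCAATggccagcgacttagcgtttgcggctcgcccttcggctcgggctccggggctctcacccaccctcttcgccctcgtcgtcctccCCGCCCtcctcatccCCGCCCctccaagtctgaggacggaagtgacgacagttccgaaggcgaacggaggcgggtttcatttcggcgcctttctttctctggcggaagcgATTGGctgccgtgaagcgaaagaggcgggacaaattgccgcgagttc
CASP8AP2, chr6:89829630-89829879, plus strand: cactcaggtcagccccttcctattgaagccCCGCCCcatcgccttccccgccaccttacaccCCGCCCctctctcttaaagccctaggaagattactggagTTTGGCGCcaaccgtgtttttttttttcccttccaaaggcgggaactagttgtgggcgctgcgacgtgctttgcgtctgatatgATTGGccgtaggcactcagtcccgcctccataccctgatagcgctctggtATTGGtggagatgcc
In the 300-base windows (250 before to 50 after the start) of the 8 members matched (ZNF473 and ERI1 were not), TTTGGCGC occurred in CASP8AP2, CPSF3 and CSTF2, that is 3 of 8, against 1.07% of 11414 promoters of tested genes. These 3 members were among those that did not pass the test, as were ZNF473 and ERI1, whose promoters were not searched. A link between this site and the calls was not tested. CCAAT occurred in LSM10, NPAT and CASP8AP2 (37.0% of promoters) and GGGCGG in 6 of the 8 (69.9%). No window held TATAAA (5.92% of promoters) or TTTCGCGC (1.01%).

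The partners of these factors were taken from lists by function, read against the background of 31.2% of genes lower and 31.8% higher. The U7 ring shares 5 Sm proteins with the spliceosomal snRNPs, and 4 of these 5 were lower and none higher, with a median of -0.23. SNRPD3 stood at 301 ± 13.4 CPM in KO and 405 ± 19.3 CPM in control libraries (SD, n = 4), a log2 fold change of -0.43 ± 0.0458. SNRPF, SNRPE and SNRPB had -0.31, -0.23 and -0.16, and SNRPG, at 0.07, was not called. SNRPD1 and SNRPD2, which LSM10 and LSM11 replace, had -0.32 ± 0.0504 and -0.14 ± 0.0591 (adjusted p = 0.0388, edgeR). SNRPD2 was not called in 8 of 17 settings, among them those without KO sgRNA1 replicate 1, KO sgRNA2 replicate 1, control sgRNA1 replicate 1 or control sgRNA2 replicate 2 (-0.14 to -0.09). SNRPE was not called without control sgRNA1 replicate 1 (-0.13).

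The nuclear cap-binding complex, its partner ARS2, NELF and CDK9 help to route transcripts to histone-type processing. Of 7 tested, 3 were lower and 1 higher (median -0.10): SRRT, which encodes ARS2, had -0.37 ± 0.0441, NELFA -0.28, NELFCD -0.23 and CDK9, the kinase of elongating polymerase, 0.23 ± 0.0632. In this list 5 genes were lower without control sgRNA1 replicate 2 and 1 after thinning, beside 4739 and 3310 of all genes. Of 18 other cleavage and polyadenylation factors, 9 were lower and 1 higher (median -0.10), with 5 lower after thinning. PABPN1, the nuclear poly(A)-binding protein, had -0.36 ± 0.0573, NUDT21, a CFIm subunit, -0.33 ± 0.052, CPSF1 -0.32 ± 0.054 and RBBP6 0.20 ± 0.0459.

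Among 8 genes for histone gene transcription and the NPAT kinase, 2 were higher and 1 lower (median 0.10). The lower one was CDK2, which phosphorylates NPAT, at -0.36 ± 0.049. YY1AP1 at 0.28 and CCNE2, the cyclin E2 gene, at 0.24 were higher. HINFP, which activates H4 genes, had 0.19 ± 0.0813 and an adjusted p of 0.05 (edgeR) and was not counted. In this list 4 genes were higher without control sgRNA1 replicate 2, beside 4583 of all genes. In it 2 were lower without that library, KO sgRNA1 replicate 1 or control sgRNA2 replicate 1 and with the replicate number as a block. Of all genes, 4178 to 4739 were lower in these settings.

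Histone mRNA decay factors went both ways, with 3 higher and 6 lower of 16 (median -0.02). LSM7, PATL1 and LSM4, which act in the LSM1-7 and decapping pathway, had -0.44, -0.38 and -0.35, and the 5′ exonuclease gene XRN1 had 0.28. All 8 genes listed as SLBP partners in translation or turnover were lower (median -0.31, from -0.52 to -0.14). They include CCNA2, cyclin A2, whose kinase marks SLBP for destruction (135 ± 6.94 CPM in KO, 193 ± 6.62 in control; -0.52 ± 0.0431), MIF4GD, which links SLBP to translation (-0.48 ± 0.0794), CSNK2A1 (-0.40 ± 0.0463) and CCNF (-0.35 ± 0.049). Of 25 DNA replication genes, which mark S phase, 19 were lower and 3 higher, with a median of -0.21. MCM2, a helicase subunit, had -0.49 ± 0.0397 and RRM2, a ribonucleotide reductase subunit, 0.42 ± 0.0441. Whether S-phase content has a part in the lower SLBP and CCNA2 levels was not tested.

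Of 8 tested replacement histone genes, whose mRNAs are polyadenylated in all phases, 4 were higher and 1 lower (median 0.10). H3-3B was higher at 0.35 and H3-3A at 0.33, and MACROH2A2 was lower at -0.65 ± 0.0525. Without control sgRNA1 replicate 2, 3 of these genes were lower, beside 4739 of all genes.

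**Figure D4:**
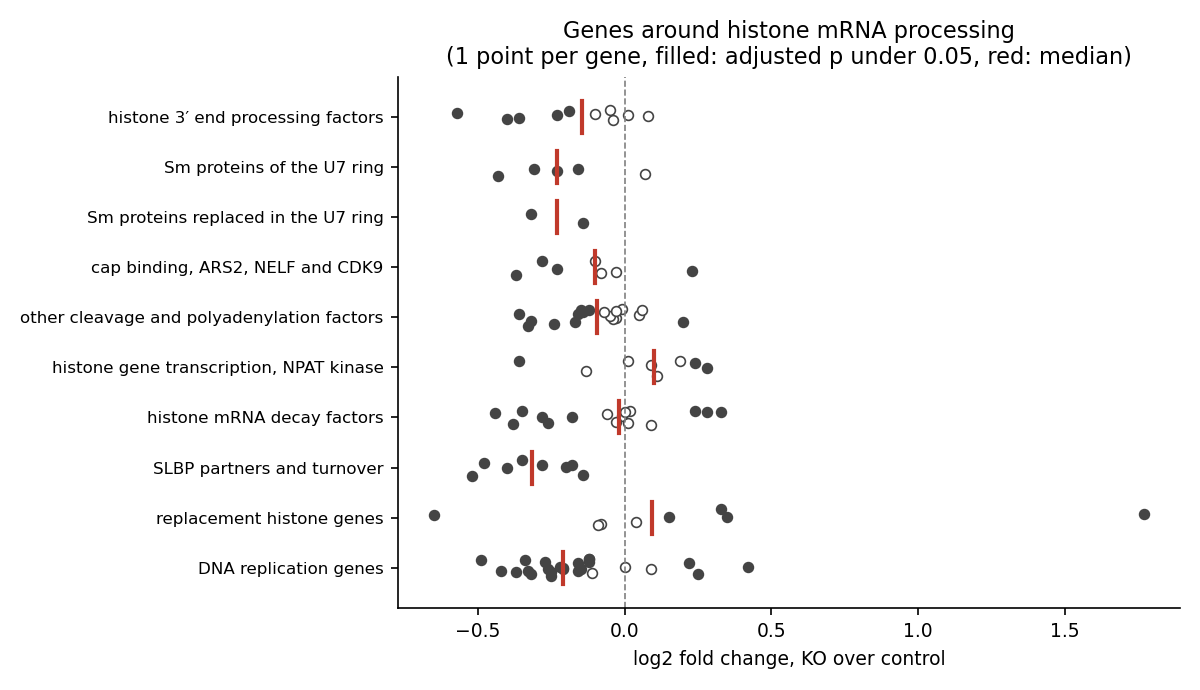
Fitted log2 fold changes of KO against control for the tested genes of 10 lists, 1 point a gene, filled for an adjusted p under 0.05, with the median of each list in red. The list medians lie between -0.31 and 0.10.

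The histone genes themselves moved the other way. Of 30 replication-dependent histone genes that passed the filter, out of 68 found in the tables, 27 were higher in KO and none lower (background 31.8% higher). The 38 others did not pass the filter, and a gene that passed only through its KO libraries had to differ, so this count is partly set by the filter and does not stand for all 68. H2BC12, the most abundant, rose from 40.1 to 150.1 CPM (1.90 ± 0.0517), H1-2 from 10.3 to 70.3 CPM (2.74) and H2BC5 from 2.97 to 33.2 CPM (3.46). Summed over the 68 genes, CPM were 418, 412, 439 and 371 in KO and 79.9, 82.7, 99.2 and 90 in control libraries, a ratio of means of 4.66.

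The histone sum is given beside the levels of SLBP and LSM11 as a description, and the ratios mostly restate the sum. Histone CPM per SLBP CPM were 2.95, 2.78, 3.09 and 2.5 in KO and 0.457, 0.54, 0.578 and 0.513 in control libraries. Per LSM11 CPM they were 9.66, 9.6, 10.1 and 8.69 in KO and 1.26, 1.34, 1.46 and 1.45 in controls.

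The tested histone genes with a counted length up to 600 bases summed to 131 CPM in KO and 29.8 CPM in control libraries, and the 7 longer ones to 274 and 56.8 CPM, or 66.9% of the KO histone sum. Among the longer genes, H2BC12, H1-2, H2BC5 and H2BC21 stood at 40.1, 10.3, 2.97 and 2.84 CPM in control libraries. Their log2 fold changes were 1.90, 2.74, 3.46 and 1.96. H1-4, H2BC18 and H3C4 stood at 0.316, 0.075 and 0.2 CPM in control libraries and at 3.28, 1.52 and 4.33 CPM in KO, so counts and medians over the length classes are not given. Counts per gene do not show where a transcript ends, so polyadenylated histone reads were not measured apart from other histone reads. The part of the lower SLBP, LSM11, LSM10, NPAT and SYMPK in the histone counts was not tested: both differ between the same 8 libraries, and with the other differences between the arms they cannot be told apart. Protein levels and U7 RNA were not analysed here.

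**Figure D5:**
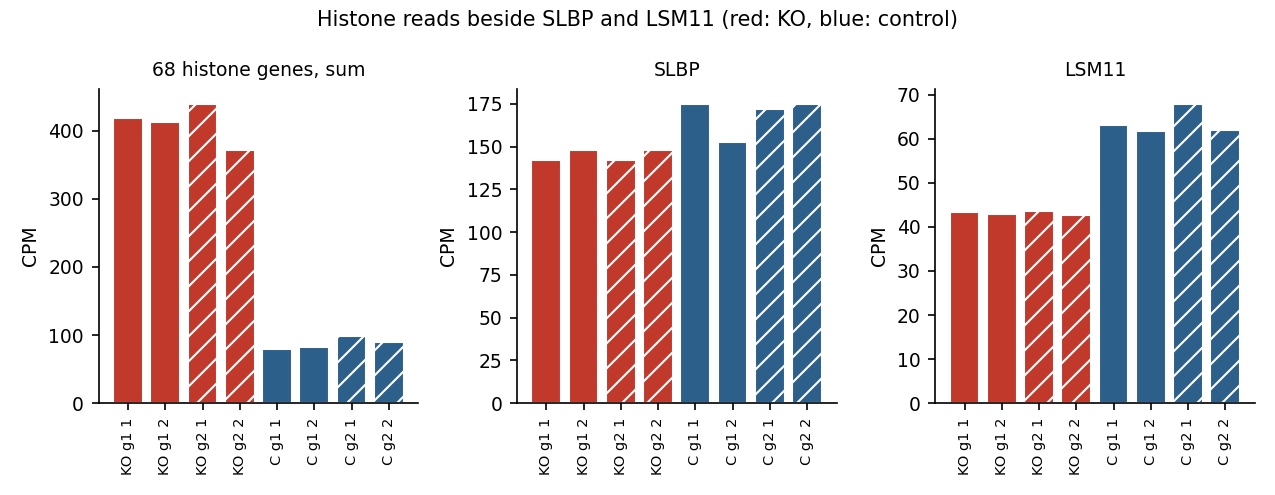
Bars of CPM in each library for the sum of 68 replication-dependent histone genes, SLBP and LSM11, with KO in red, control in blue and sgRNA2 libraries (g2) hatched. KO libraries hold 371 to 439 histone CPM at lower SLBP and LSM11, and control libraries 79.9 to 99.2.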

How the data were processed

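The authors deposited 1 table of raw counts per gene and library, beside each gene's counted length, as the file headers state. The submitters' processing notes name featureCounts and hg38. For the aligner, annotation release, strand setting and filters, the entry is: not given in the sources used here. Of 28395 entries, 459 without a gene ID (0.0284 to 0.0425% of counts) were left out, and 27744 of 27936 genes were named from RefSeq (GRCh38.p14).

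Genes were kept by filterByExpr (minimum count 10, minimum total 15) and tested with edgeR 4.0.16 (TMM, quasi-likelihood F test) on all 8 libraries with a guide term and 5 residual degrees of freedom. Contrasts within a guide, between guides and between control lines came from a fit of 4 group means (4 residual degrees of freedom). Benjamini-Hochberg adjustment ran over 14455 genes, and genes were called under 0.05. The script was tested on simulated data with 200 changed genes. Replicates differed by more than sampling noise. Alternatives were DESeq2 1.42.0, its size factors, limma-voom (limma 3.58.1), library totals, no filter, a stricter filter, thinning, no guide term, a replicate block and leaving out each library. Thinning was a single random draw of counts, so calls that changed with it may depend on that draw.

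Members and lists were chosen with earlier results of these data known. Named were all members, KAT5, up to 4 genes with the smallest p of each list, genes that overlap a member or start within 1000 bases of it, and the 3 genes nearest to SLBP. H2BC21, H1-4, H2BC18, H3C4, CSTF2T, SNRPG and the low or marker genes were named beside these after their values were seen. One gene named by this rule is not reported here, although it stayed in every count and adjustment. Exon overlaps and transcripts are from GENCODE v29.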

Additional observations from a re-analysis of the deposited data

Results flagged for a closer look

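Dixon's 95% criterion, on the gap to the nearest library over the range, was applied to each member and the histone sum in both arms. This gave 22 sets of 4 libraries, which come from the same libraries and are not independent. Chance flags about 1 in 20 independent sets. In 5 of the 22, 1 library stood apart from the other 3. Of these, 4 are the shallow control sgRNA1 replicate 2 library: SLBP was lowest there at 153 CPM (next 172, ratio 0.837) and SYMPK lowest at 142 CPM (next 159.7, ratio 0.88). In the same library NPAT was highest at 56.3 CPM (next 50.1, ratio 0.89) and CASP8AP2 highest at 133 CPM (next 119.8, ratio 0.922). The fifth was SYMPK in KO sgRNA2 replicate 1, highest among KO libraries at 147 CPM (next 134, ratio 0.981). Without the shallow library 5 members were still called lower, beside 4739 of all genes. Their log2 fold changes were -0.27 for SLBP, -0.47 for LSM10, -0.59 for LSM11, -0.35 for NPAT and -0.23 for SYMPK.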

How the results depend on the processing

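Over 17 settings (8 of which leave out 1 library), LSM11 (-0.60 to -0.53), NPAT (-0.39 to -0.31) and SLBP (-0.27 to -0.19) were called lower in all 17, LSM10 (-0.47 to -0.14) and SYMPK (-0.23 to -0.11) in 16. Thinning to the smallest library gave 3 members lower and 1 higher, beside 3310 and 3297 of all genes. ZNF473 (-0.17 to -0.06) was called lower in 2 settings. Within sgRNA1, 3 members were lower with DESeq2, 1 after thinning and 2 to 6 when 1 library was left out. There LSM10 ran from -0.70 without control sgRNA1 replicate 2 to 0.06 (adjusted p = 0.841, edgeR) without control sgRNA1 replicate 1. Within sgRNA2, thinning left 2257 genes lower and 2355 higher. For the guide difference, 4 genes were lower and 7 higher with no filter, and 0 to 15 and 0 to 22 without 1 library. Between control lines, 57 were lower and 29 higher with no filter, and 0 higher with DESeq2 size factors, library totals, DESeq2, limma-voom, the stricter filter and thinning. Without 1 library they were 2 to 53 lower and 0 to 63 higher. Where this leaves an arm with 1 library, it is assumed to vary like the other groups. Replicate numbers did not pair the libraries (correlations of deviations 0.0182 and 0.0325). With a replicate block 5 members were lower and 0 higher, and 4453 and 4527 of all genes. Depth limits LSM10 most, at 62 counts in the shallow library.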

Other observations

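LSM2, a subunit of the LSM1-7 ring that starts histone mRNA decay, and NELFE, a NELF subunit, had at most 2 counts in any of the 8 libraries, although their partner genes were well counted. Both lie on chromosome 6, LSM2 at 31797396 to 31806966 and NELFE at 31952087 to 31958971 (GRCh38.p14). Of 64 coding genes within 500000 bases of this interval, 46 (71.9%) had at most 2 counts in every library, against 3921 of 19175 coding genes in all (20.4%). Counts for genes of this interval therefore say little about their expression, and the cause was not tested.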
